A study of Rattus norvegicus with 4 samples.

Results

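A set of 10 genes that mark the lining of islet blood vessels was followed in rat pancreatic islets after a growth-restricted pregnancy: the growth factor receptors Kdr, Flt1, Tek and Tie1, the junction genes Pecam1, Cdh5 and Esam, the surface genes Emcn and Plvap, and the secreted glycoprotein gene Vwf. They were picked as known endothelial genes, with earlier results of these data known, and every non-control probe that carries the name was taken. This gave 12 probes of 10 genes, among 20012 genes or unnamed probes that could be tested and 26456 on the arrays. The islets came from Sprague Dawley offspring at postnatal day 14, all born by spontaneous delivery of dams that had surgery at embryonic day 18. In the group with intrauterine growth restriction (IUGR, 4 samples) both uterine arteries of the dam were tied, which reduces blood flow to the fetuses, and in the control group (4 samples) the dam had sham surgery. Each of 4 arrays on 1 slide, read in 2 colours, held 1 IUGR and 1 control sample. IUGR was labelled with Cy5 on arrays 1 and 2 and with Cy3 on arrays 3 and 4. The sex and litters of the pups and the number of animals per sample are not stated in the labels, which call the samples biological replicates.

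Islets are threaded by a dense net of capillaries whose thin endothelium is pierced by fenestrae, small windows through which hormones reach the blood. Beta cells make the growth factor Vegfa, which acts on the endothelial receptors Kdr and Flt1 and keeps these fenestrated capillaries in place. Angiopoietins act on a further receptor system, made of Tek and its partner Tie1, that steadies mature vessels. Whole isolated islets hold endocrine cells, vessel cells and other cells together, so in these bulk samples fewer endothelial cells and less RNA per endothelial cell cannot be told apart.

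Each value rests on the brightness of a probe of 60 bases. The probes of the genes that the results turn on are given below, 5′ to 3′, to show which stretch of each transcript was measured. Positions are on rat assembly rn4 as the scanner files give them, and exons were not assigned since no annotation of that build was used here. The first 4 belong to the genes with the highest estimated ratios. The last 2 are probes of Vwf from distant places in its gene, which gave different values.

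Cdh5 (A_64_P145597, chr19:779665-779724, minus strand): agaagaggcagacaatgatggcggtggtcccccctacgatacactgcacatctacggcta

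Tie1 (A_44_P520235, chr5:138950263-138950322, minus strand): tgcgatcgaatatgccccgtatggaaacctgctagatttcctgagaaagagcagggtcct

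Emcn (A_44_P240274, chr2:234958254-234958549, plus strand): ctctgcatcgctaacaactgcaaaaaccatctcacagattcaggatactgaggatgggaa

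Tek (A_44_P534601, chr5:115178576-115178635, plus strand): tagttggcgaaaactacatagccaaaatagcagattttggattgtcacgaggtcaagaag

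Vwf (A_64_P114913, chr4:161854554-161854613, plus strand): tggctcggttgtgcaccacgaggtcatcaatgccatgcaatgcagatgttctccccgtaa

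Vwf (A_64_P286599, chr4:161738186-161738245, plus strand): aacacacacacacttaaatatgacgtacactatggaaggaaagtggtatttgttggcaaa

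The Emcn probe covers 296 bases of the genome with its 60 bases. The brightest Vwf probe, A_64_P136501 at chr4:161854702-161854759, lies next to A_64_P114913 and gave the Vwf values below. The Kdr probe had no rn4 position. The other probes were A_64_P201730 for Flt1 (chr12:7957094-7957153), A_42_P826191 for Pecam1 (chr10:96056219-96056278), A_42_P481816 for Esam (chr8:38783957-38784016) and A_64_P137784 for Plvap (chr16:18668570-18668629). The probe used for each of the 10 genes was well above background in all 4 IUGR and all 4 control channels, and none was saturated (0 arrays). The beta cell genes Ins1 and Ins2 were also well above background in all 8 channels, as the label of islets implies.

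The arrays did not resemble one another equally, and this bears on every value below. Across the 20012 genes, which are not independent replicates, pairs among arrays 2, 3 and 4 had correlations of r from 0.37 to 0.63 in their log2 ratios. Array 1 correlated with arrays 2, 3 and 4 at r = 0.13, -0.23 and -0.30. The IUGR channel was the brighter on array 1, by 1.68 on the log2 scale of median raw signal, and the dimmer on arrays 2, 3 and 4, at -1.58, -2.42 and -1.55. Median raw signals ran from 105 to 823 intensity units over the 8 channels, and 61.8% to 77.2% of probes were well above background in a channel. Whether the channels of array 1 carry the right labels was not tested; were they exchanged, every ratio printed here for array 1 would change sign. The endothelial genes and the lists are therefore given with and without array 1.

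The question was whether RNA of the islet vessel lining differs after IUGR, and no endothelial gene passed the test. The log2 IUGR over control estimate was above 0 for 9 of the 10 genes, with a median of 0.17 against 0.014 over all tested genes, of which 53.0% were above 0; with median centring in place of loess normalization only 5 of the 10 were above 0 and their median was -0.08. Limma called 0 of the 10 genes at a Benjamini-Hochberg adjusted p under 0.05, as it did 0 of all 20012 genes (0%), with adjusted p from 0.339 to 0.941 for the 10. The adjusted p of 0.339 was the smallest of any gene, and 4980 of the 20012 genes shared it, so it does not rank them. An unadjusted p under 0.05 was found for 2 endothelial genes with higher RNA in IUGR, Emcn and Tek, where 7.13% of all genes met that, and 1 with lower RNA, Vwf, where 6.54% did. The channel levels of the IUGR and control samples overlapped for all 10 genes (0 of 10 without overlap, against 3.04% of all genes).

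**Figure D1:**
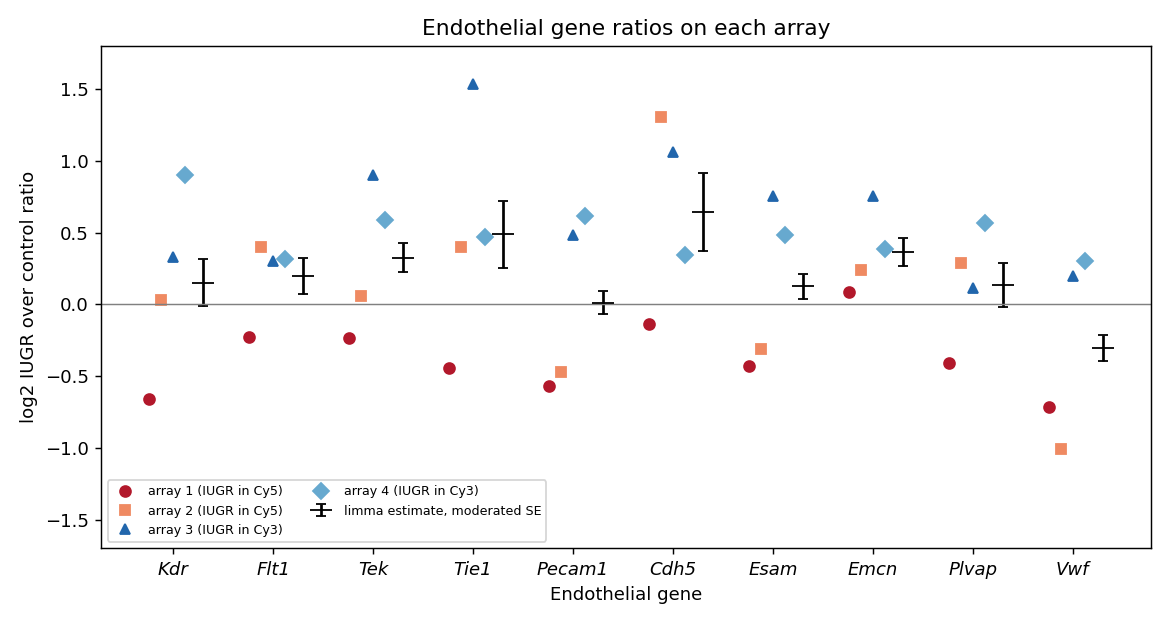
Log2 IUGR over control ratio (vertical axis) of the 10 endothelial genes on arrays 1 to 4 (coloured symbols), with the limma estimate and its moderated SE in black. Array 1 lies below 0 for 9 of the 10 genes and arrays 3 and 4 lie above 0 for all 10; the estimates of Pecam1, Kdr, Plvap and Esam turn below 0 with median centring.

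The sign of these ratios changed between arrays in a way most of the 10 genes shared. On array 1 only Emcn was above 0, and the median of the 10 genes was -0.42. On array 2, with the same dye orientation, 7 were above 0 and the median was 0.15. On arrays 3 and 4, with the dyes exchanged, all 10 were above 0, with medians of 0.62 and 0.48. A ratio below 0 on array 1 and above 0 on arrays 3 and 4 was found for 9 of the 10 genes and for 23.7% of all genes. The part of the dye and of array 1 in this pattern was not tested. The limma model holds a dye term, which takes up the gap between arrays with IUGR in Cy5 and arrays with IUGR in Cy3. No sample was labelled with both dyes, so an effect of dye and a difference between these sets of samples cannot be told apart. The unadjusted p of the dye term was under 0.05 for Esam, Kdr, Pecam1, Tek and Vwf, 5 of 10 genes against 9.22% of all genes. None of these 5 dye terms passed adjustment (adjusted p from 0.504 to 0.525, limma).

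On arrays 1 to 4, the log2 ratios of Kdr, the main signalling receptor for Vegfa, were -0.66, 0.03, 0.33 and 0.90. Its estimate was 0.15 ± 0.16, with a 95% interval from -0.27 to 0.58 and an adjusted p of 0.605 by limma. The ± is the moderated SE after removal of the dye term, with n = 4 arrays, as for all estimates here unless an array is left out. The lowest Kdr level of the 8 channels was a control sample and the highest was another control sample, so the controls spanned the IUGR samples. Flt1, a receptor that binds Vegfa tightly and signals weakly, had ratios of -0.23, 0.40, 0.30 and 0.32. These agreed closely on arrays 2, 3 and 4 and set array 1 apart. The Flt1 estimate was 0.20 ± 0.13 (adjusted p = 0.411, limma), and without array 1 it was 0.35 ± 0.10 (adjusted p = 0.101). It was 0.040 without array 2, 0.10 with median centring and 0.024 with a covariate for channel brightness.

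Tek, the angiopoietin receptor also known as Tie2, had ratios of -0.23, 0.05, 0.90 and 0.58. In log2 normalized intensity, Tek was at 7.86, 7.26, 7.94 and 7.72 in the IUGR channels of arrays 1 to 4 and at 8.10, 7.21, 7.04 and 7.14 in the control channels. The control sample of array 1 was thus the highest of all 8, while the other 3 controls lay below every IUGR sample. The Tek estimate was 0.33 ± 0.10, a 1.25-fold ratio with a 95% interval from 1.04 to 1.5 (unadjusted p = 0.0250, adjusted p = 0.339, limma, n = 4 arrays). Its mean was -0.09 over the arrays with IUGR in Cy5 and 0.74 over those with IUGR in Cy3, and the dye term had an unadjusted p of 0.0102 (adjusted p = 0.504). With spots of outlying background left out or kept as measured, in place of receiving the median background, the Tek estimate was 0.12 (adjusted p = 0.652), and with median centring it was 0.56. None of the endothelial probes had a spot of outlying background. These settings therefore reach the endothelial genes only through the background correction and normalization, which are fitted over all spots.

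Tie1, which pairs with Tek and has no well-defined ligand of its own, had ratios of -0.45, 0.40, 1.53 and 0.47. Its IUGR levels were 9.55, 8.89, 10.07 and 9.10 and its control levels 9.997, 8.49, 8.53 and 8.64, again with the control of array 1 among the highest. The estimate was 0.49 ± 0.23 (adjusted p = 0.341, limma), and leaving out array 2, 3 or 4 gave 0.28, 0.22 or 0.75. It was 0.23 with outlying backgrounds left out or kept, 0.31 with median centring and 0.18 with the brightness covariate. Without array 1 the Tie1 estimate was 0.70 ± 0.23 (adjusted p = 0.130). All 4 receptor genes therefore had estimates above 0, from 0.15 to 0.49, although Kdr was at -0.22 under median centring and -0.02 without array 2.

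**Figure D2:**
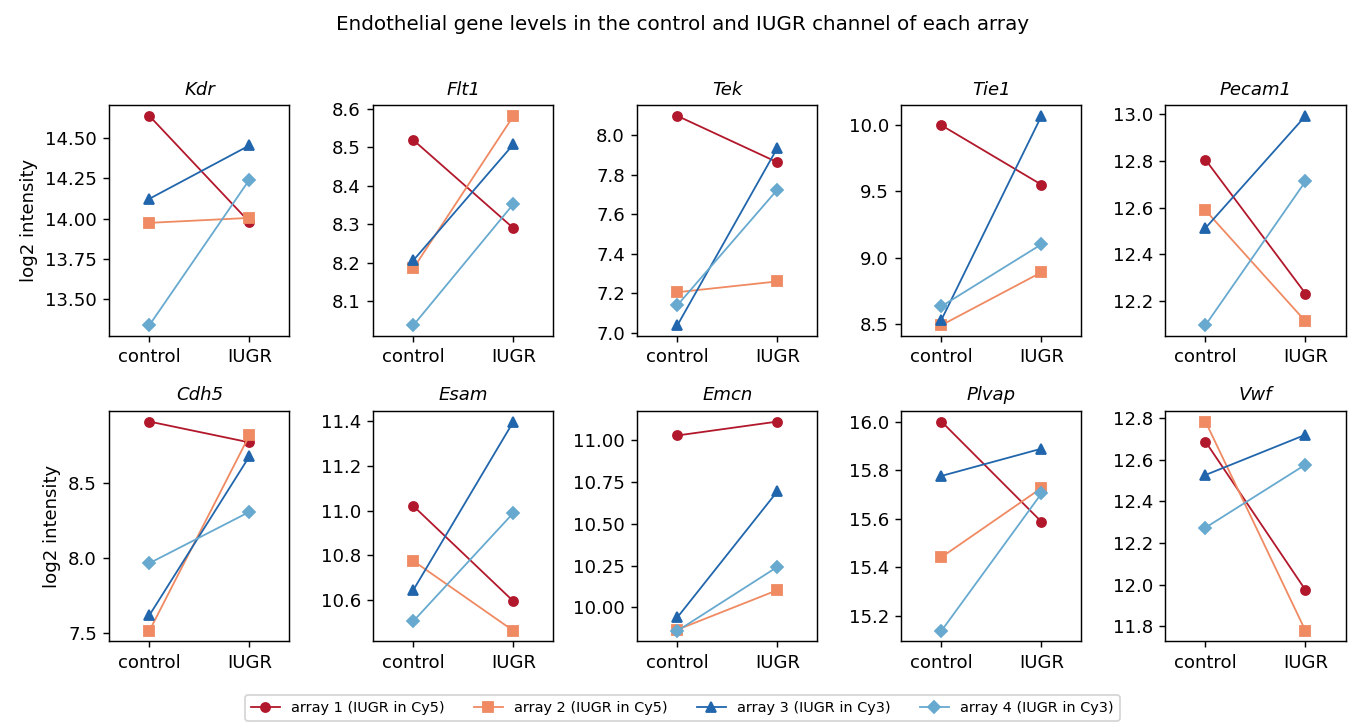
Normalized log2 intensity (vertical axis, its own range for each gene) in the control and IUGR channel, with a line joining the 2 channels of an array. The line of array 1 slopes down from control to IUGR for 9 of the 10 genes and the lines of arrays 3 and 4 slope up for all 10; levels of different genes come from different probes and are not comparable.

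The 3 junction genes differed widely from one another. Pecam1, an adhesion molecule at endothelial cell contacts that platelets and leukocytes also carry, had ratios of -0.57, -0.47, 0.48 and 0.62. Its signs split by dye orientation, with a mean of -0.52 with IUGR in Cy5 and 0.55 with IUGR in Cy3. The Pecam1 estimate was 0.01 ± 0.08, with a 95% interval from -0.19 to 0.22 (adjusted p = 0.941, limma). Its dye term was -0.54 (unadjusted p = 0.00124, adjusted p = 0.504). Esam, an adhesion molecule of the tight junction region, had the same order of signs, with ratios of -0.43, -0.31, 0.75 and 0.49. The Esam estimate was 0.12 ± 0.09, with a 95% interval from -0.10 to 0.35 (adjusted p = 0.442, limma). Pecam1, Esam and Vwf were below 0 on both arrays with IUGR in Cy5 and above 0 on both with IUGR in Cy3, 3 of 10 genes against 7.25% of all genes.

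Cdh5, the cadherin that holds endothelial cells together at adherens junctions, had the highest estimate of the 10 genes. Its ratios were -0.14, 1.30, 1.06 and 0.34 on arrays 1 to 4. The IUGR channels were close together, at 8.77, 8.82, 8.68 and 8.31, whereas the control channels were at 8.91, 7.51, 7.62 and 7.96. A single control sample, that of array 1, lay above all IUGR samples, and the other 3 lay below all of them. The Cdh5 estimate was 0.64 ± 0.27, a 1.56-fold ratio with a 95% interval from 0.95 to 2.55 (unadjusted p = 0.0670, adjusted p = 0.339, limma). That estimate is smaller than the SD of its 4 array ratios, 0.66. Without array 1 it was 1.00 ± 0.17 (adjusted p = 0.0723), the lowest adjusted p that any of the 10 genes had in any setting. Genes of every vascular list below shared that adjusted p. In that fit array 2 alone stood for IUGR in Cy5. The Cdh5 estimate was 0.28 when array 2 was left out, and a covariate for channel brightness brought it to 0.19. Outlying backgrounds left out or kept gave 0.42.

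Of the 2 surface genes, Emcn, a mucin-like glycoprotein of capillary and venous endothelium, was the only endothelial gene with the same sign on all 4 arrays, as were 20.7% of all genes. Its ratios were 0.08, 0.24, 0.75 and 0.38. Emcn levels were 11.11, 10.104, 10.69 and 10.24 in the IUGR channels and 11.03, 9.87, 9.94 and 9.86 in the control channels of arrays 1 to 4. Both samples of array 1 stood above all others, and within each array the IUGR channel was the higher. The estimate was 0.36 ± 0.10, a 1.29-fold ratio with a 95% interval from 1.08 to 1.54 (unadjusted p = 0.0152, adjusted p = 0.339, limma, n = 4 arrays). Leaving out any 1 array kept it between 0.27 and 0.46, and median centring lowered it to 0.06. Plvap, the protein that forms the diaphragms across endothelial fenestrae, had ratios of -0.41, 0.28, 0.11 and 0.56 and an estimate of 0.14 ± 0.15 (95% interval from -0.26 to 0.54, adjusted p = 0.618, limma). The Plvap estimate was 0.31 ± 0.13 without array 1, -0.04 without array 2 and -0.26 with median centring.

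Vwf, the large glycoprotein that endothelial cells store and release to tether platelets, was the only endothelial gene with an estimate below 0. Its ratios were -0.71, -1.01, 0.19 and 0.30. Its IUGR levels were 11.97, 11.78, 12.72 and 12.58 and its control levels 12.69, 12.78, 12.53 and 12.27, so the 2 lowest levels were the IUGR samples of arrays 1 and 2. The estimate was -0.31 ± 0.09, a 0.809-fold ratio with a 95% interval from 0.688 to 0.950 (unadjusted p = 0.0201, adjusted p = 0.339, limma). The mean was -0.86 with IUGR in Cy5 and 0.25 with IUGR in Cy3, and the dye term had an unadjusted p of 0.00188 (adjusted p = 0.504). Median centring gave -0.67. Beside the other 9 endothelial genes, Vwf was lowest on arrays 1, 2 and 4 and next to lowest on array 3, and it differed from their median by -0.30, -1.24, -0.56 and -0.18 on arrays 1 to 4 (a description, since Vwf was singled out after its values were seen).

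The 3 Vwf probes did not give the same value. The neighbouring probe A_64_P114913 had ratios of -0.43, -0.99, -0.07 and 0.14 and an estimate of -0.34 ± 0.12 (adjusted p = 0.340, limma on all probes). The distant probe A_64_P286599 had 0.01, 0.21, 0.17 and -0.16, with an estimate of 0.06 ± 0.10 (adjusted p = 0.739). That probe was well above background in only 2 IUGR and 3 control channels, whereas both neighbouring probes were well above it in all 4 of each. With the mean of all 3 probes, the Vwf estimate was -0.20.

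All 10 estimates lay further from 0, on the same side, without array 1. The median of the 10 genes was then 0.34 in place of 0.17, and 9 of them were above 0. An unadjusted p under 0.05 was then found for 5 genes with higher RNA in IUGR, Cdh5, Emcn, Flt1, Tek and Tie1, where 17.3% of all genes met that, and 1 with lower RNA, Vwf, where 13.7% did. The estimates without array 1 were 0.32 for Kdr, 0.40 for Tek, 0.04 for Pecam1, 0.15 for Esam, 0.40 for Emcn and -0.38 for Vwf. No adjusted p was under 0.05. These values rest on 3 arrays whose IUGR channels were all the dimmer. The fit kept the dye term, so array 2 alone stood for IUGR in Cy5 and weighed as much as arrays 3 and 4 together. Its SEs and p-values reflect the moderated spread between arrays 3 and 4 only, not the spread over the 3 arrays.

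The ligands of these receptors showed no called change either. Vegfa had ratios of -0.37, 0.27, 0.39 and 0.32 and an estimate of 0.15 ± 0.13 (adjusted p = 0.517, limma) from its brightest probe. The mean of all its probes gave 0.54 (adjusted p = 0.354), so its probes disagreed. The brightest probe was below 0 on array 1 and above 0 on the other 3 arrays, as were its receptors Kdr and Flt1. Pgf, a related ligand of Flt1, had an estimate of 0.09 ± 0.10 (adjusted p = 0.623). Angpt1, the ligand that activates Tek, had -0.08 ± 0.10 (adjusted p = 0.686), and Angpt2, which can oppose it, had 0.09 ± 0.15 (adjusted p = 0.733). All 4 changed sign under at least 1 alternative setting.

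Over the whole list of VEGF, angiopoietin and related ligands, 14 genes were tested, 9 with estimates above 0 and 5 below, with a median of 0.07 and 0 calls. At an unadjusted p under 0.05 there were 1 above and 2 below, where 7.13% of all genes were above and 6.54% below. The 3 of smallest p were Angptl4, a secreted inhibitor of lipoprotein lipase, at -0.49 ± 0.08, Apln, a peptide that acts on vessels, at 0.78 ± 0.21, and Jag1, a Notch ligand, at -0.37 ± 0.14 (adjusted p = 0.339 each, limma). Angptl4 was below 0 on all 4 arrays, at -0.10, -0.35, -0.73 and -0.77. Apln had the array order of the endothelial medians, at -0.38, 0.66, 1.73 and 1.11. Without array 1 the list was even, with 7 genes above 0 and 7 below and a median of -0.0019.

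Other vascular receptors and signal proteins lay mostly above 0. Of the 18 tested (of 20 listed), 16 had estimates above 0 and 2 below, with a median of 0.16 and 0 calls. An unadjusted p under 0.05 was found for 4 above and 1 below, against 7.13% and 6.54% of all genes. Nrp1, a co-receptor for Vegfa, had ratios of -0.14, 1.22, 1.46 and 0.75 and an estimate of 0.82 ± 0.26, with array 1 alone below 0, as for Cdh5. Ramp3, a partner of the adrenomedullin receptor, had 0.33 ± 0.10 and was above 0 on all 4 arrays. Notch1, a receptor in vessel patterning, had -0.47 ± 0.15 from its brightest probe and -0.23 as the mean of its probes (adjusted p = 0.339 for each of the 3 from the brightest probe, limma). Without array 1 the median of this list was 0.27, still with 16 above 0 and 2 below.

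Other endothelial surface, junction and adhesion genes were split, with 10 of 22 tested (of 23 listed) above 0 and 12 below, a median of -0.08 and 0 calls. At an unadjusted p under 0.05 were 4 above and 3 below, against 7.13% and 6.54% of all genes. Mcam, an adhesion molecule that smooth muscle also expresses, had -0.73, -0.89, 0.04 and 0.17 on arrays 1 to 4, an estimate of -0.35 ± 0.08. Selp, the P-selectin that endothelium stores in the same granules as Vwf, had -0.15, 0.38, 0.97 and 0.73, an estimate of 0.48 ± 0.12. Selp and Vwf thus had estimates on opposite sides of 0, while their array ratios had opposite signs on array 2 alone. Esm1, a proteoglycan made by sprouting endothelium, had 0.59 ± 0.20 (adjusted p = 0.339 for each of the 3, limma).

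Endothelial transcription factors leaned the other way, with 8 of 22 tested above 0 and 14 below, a median of -0.18 and 0 calls. At an unadjusted p under 0.05 were 1 above and 3 below, against 7.13% and 6.54% of all genes. Foxc2, a factor of vessel and lymphatic development, had -0.67 ± 0.12 and was below 0 on all 4 arrays, at -0.31, -0.92, -0.72 and -0.71. Tal1, shared by endothelial and blood cell precursors, had -0.39 ± 0.11 and was also below 0 on all 4, while the mean of its probes gave -0.22. Ets1, an ETS factor of activated endothelium, had 0.56 ± 0.14 (adjusted p = 0.339 for each of the 3, limma). Without array 1 the medians of the surface and transcription factor lists were -0.12 and -0.15. Across these 4 vascular lists the medians ran from -0.18 to 0.16, on both sides of 0.

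**Figure D3:**
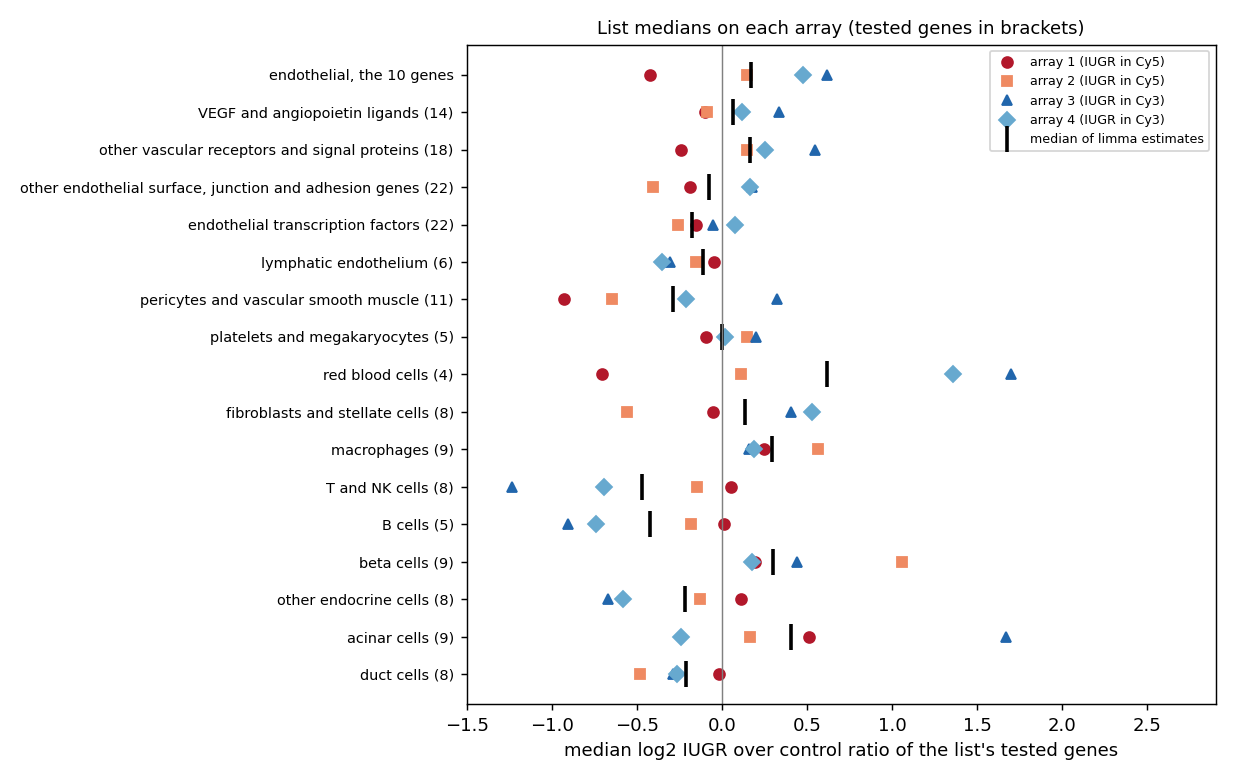
Median log2 IUGR over control ratio (horizontal axis) of each list's tested genes on arrays 1 to 4 (coloured symbols) and of their limma estimates (black bar). The endothelial, ligand, other receptor, pericyte and red blood cell medians all run lowest on array 1 and highest on array 3, with array 2 below array 4, and no list held a called gene; with median centring the endothelial median was -0.08.

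Markers of other cells that islet samples can hold moved with the endothelial genes on some arrays. The 4 tested red blood cell genes had medians of -0.71, 0.11, 1.70 and 1.36 on arrays 1 to 4, the array order of the endothelial medians (-0.42, 0.15, 0.62 and 0.48), and all 4 had estimates above 0 (median 0.62, 0 called; 0.82 without array 1). Their part in the endothelial ratios was not tested. Pericyte and vascular smooth muscle genes, from the cells that wrap vessels, had medians of -0.93, -0.64, 0.32 and -0.21, with 3 of 11 estimates above 0 and 8 below (median -0.29, 0 called; -0.35 without array 1). Acta2 and Tagln, both of the contractile apparatus, had the smallest p, at -0.73 ± 0.11 and -0.79 ± 0.16 (adjusted p = 0.339 each, limma). The 3 genes above 0 were Rgs5 at 0.42 ± 0.16, Kcnj8 at 0.05 and Notch3 at 0.02. The medians of the 10 endothelial genes and of the pericyte genes were both lowest on array 1. Those of the surface and transcription factor lists were lowest on array 2, at -0.40 and -0.26, beside -0.19 and -0.15 on array 1. The lymphatic endothelial median was highest on array 1, at -0.05.

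Lymphatic endothelial genes had a median of -0.11 over 6 genes, 3 above 0 and 3 below, and without array 1 the median was -0.18, with 2 above and 4 below. Ccl21, a chemokine of lymphatic vessels and lymphoid tissue, was at -1.61 ± 0.14, with ratios of -1.36, -1.99, -1.75 and -1.34. Reln, a secreted matrix protein also made by lymphatic endothelium, was at -1.12 ± 0.11 (adjusted p = 0.339 each, limma). The other lymphatic genes lay nearer 0, with Prox1 at 0.02, Pdpn at 0.03, Flt4 at 0.05 and Lyve1 at -0.24. T and NK cell genes had 8 of 8 estimates below 0 (median -0.47, and -0.50 without array 1). Platelet genes, which matter for Vwf and Pecam1 because platelets carry both proteins, had a median of 0.0028 over 5 tested genes, and of 0.08 without array 1. Pf4 was at 0.74 ± 0.27, and Treml1 at -0.06 ± 0.08, a sign that other normalizations turned (adjusted p = 0.339 and 0.683, limma).

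Among the remaining lists, 9 of 9 beta cell genes (median 0.30) and 9 of 9 acinar genes (0.41) had estimates above 0. So did 7 of 9 macrophage genes (0.30) and 5 of 8 fibroblast and stellate genes (0.13), beside 53.0% of all genes. Below 0 lay 7 of 8 genes of other endocrine cells (median -0.22), 7 of 8 duct genes (-0.21) and 4 of 5 B cell genes (-0.42). Without array 1 the fibroblast and stellate median was -0.09, with 3 of 8 above 0, and the other 6 of these lists kept their side. The beta cell medians were 0.20, 1.06, 0.44 and 0.18 on arrays 1 to 4. Within that list, Ins1, Ins2 and Iapp were above 0 on arrays 1 and 2 and below 0 on arrays 3 and 4. The acinar medians were 0.51, 0.16, 1.67 and -0.24 on arrays 1 to 4. None of these lists held a gene called by limma. Their part in the endothelial ratios was not tested.

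**Figure D4:**
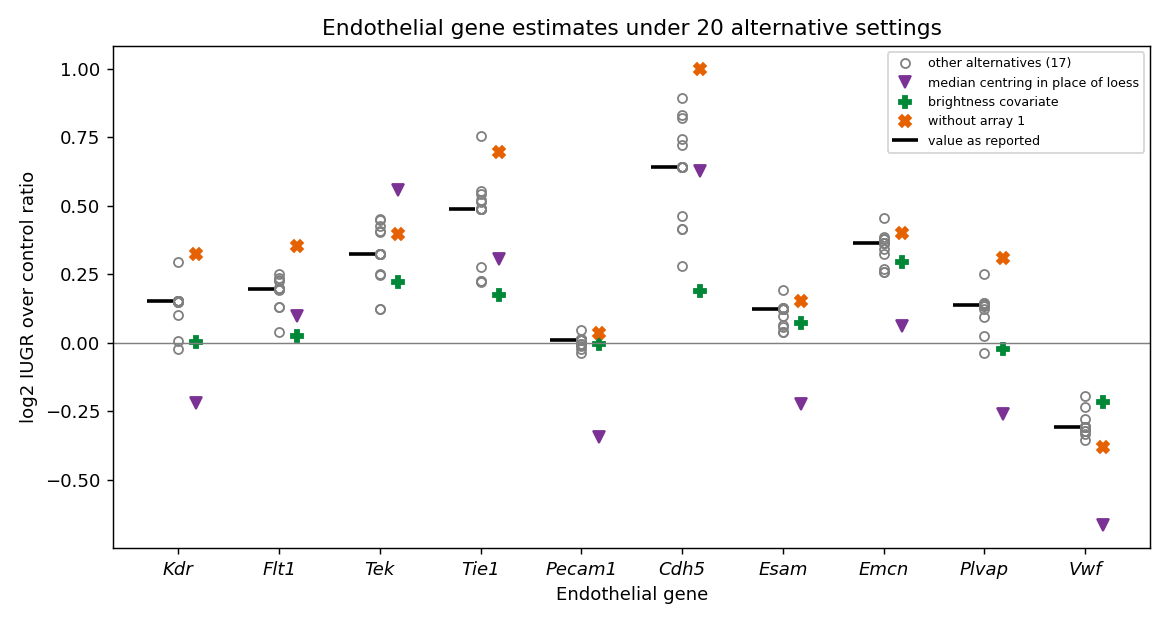
Log2 IUGR over control estimate (vertical axis) of the 10 endothelial genes as reported (black bar) and under 20 alternative settings, with median centring, a brightness covariate and the fit without array 1 set apart by colour. Cdh5, Flt1, Tek, Tie1 and Emcn stay above 0 and Vwf below 0 in all 20, while Pecam1, Kdr, Plvap and Esam cross 0 in at least 1. Alternatives such as other filters or no dye term return the reported estimate, so their sign was bound to hold.

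The plot of estimates by setting separates the genes whose sign depended on the setting (normalization, covariate or arrays used) from those whose sign did not. Flt1, Tek, Tie1, Cdh5 and Emcn had estimates above 0, and Vwf below 0, in all 20 alternatives, but the sizes varied widely. Not all 20 could change an estimate. Other filters, the fit with no dye term, array weights, the replicate block, separate channels and each probe tested alone returned the reported estimates. Averaging all probes changed only Vwf. The sign was bound to hold in these settings, so they add nothing to the agreement. Over these settings Flt1 ran from 0.024 to 0.35, Tek from 0.12 to 0.56, Tie1 from 0.18 to 0.75, Cdh5 from 0.19 to 1.00, Emcn from 0.06 to 0.46 and Vwf from -0.67 to -0.20. The genes that crossed 0 ran from -0.22 to 0.32 (Kdr), -0.34 to 0.05 (Pecam1), -0.22 to 0.19 (Esam) and -0.26 to 0.31 (Plvap). Median centring put Pecam1 at -0.34, Kdr at -0.22, Esam at -0.22 and Plvap at -0.26. No endothelial gene had an adjusted p under 0.05 in any of them.

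Promoter sequence was available here for 5 of the 10 genes (Kdr, Flt1, Tie1, Emcn and Plvap), from RefSeq on assembly GRCr8, as 300 bases around each start. The letters AGGAAG, which hold the core bound by ETS factors such as Ets1, Erg and Fli1, occurred on either strand in 4 of the 5 (Flt1, Tie1, Emcn and Plvap) and in 34.5% of 33469 promoters of that length. The letters AGATAA, a form of the core bound by GATA-family factors, were found in 0 of the 5 and in 11.6% of all. Other forms of that core were not searched. The TATA box TATAAA was found in 2 of the 5 (Flt1 and Plvap) and in 14.2% of all. Of the 4 windows that hold at least 100 bases before the annotated gene start (Kdr, Tie1, Emcn and Plvap), 2 held AGGAAG in those bases. They are shown up to the start, with AGGAAG or its reverse complement in capitals.

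Emcn (GRCr8, chr2:228564289-228564444, plus strand): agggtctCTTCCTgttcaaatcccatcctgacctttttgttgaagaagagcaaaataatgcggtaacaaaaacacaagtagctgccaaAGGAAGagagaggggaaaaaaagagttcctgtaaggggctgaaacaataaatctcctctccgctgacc

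Plvap (GRCr8, chr16:18231280-18231529, minus strand): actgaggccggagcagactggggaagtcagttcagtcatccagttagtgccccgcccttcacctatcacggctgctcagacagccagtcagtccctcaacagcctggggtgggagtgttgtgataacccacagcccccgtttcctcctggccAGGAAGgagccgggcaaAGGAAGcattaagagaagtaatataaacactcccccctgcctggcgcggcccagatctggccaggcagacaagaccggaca

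Each held 2 such matches. They describe the letters in these windows and are not measured binding sites.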

How the data were processed

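The deposited scanner files hold intensity per spot of 4 arrays read in 2 colours, extracted by the authors with Agilent Feature Extraction 10.10.1.1, per the file headers. A further table from the authors, deposited as values, gives each spot a log2 ratio; its direction and scaling are unstated, and set against the scanner values it was Cy5 over Cy3 (r from 0.988 to 0.998; medians 0.008, -0.026, -0.014 and -0.029 on arrays 1 to 4). Its normalization is not given in the sources used here, although the submitters' processing notes name limma.

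Using limma 3.58.1 (with statmod 1.5.0, in R 4.3.3), signals were corrected by normexp with an offset of 50 and loess-normalized with control spots weighted 0. Feature outlier spots were dropped, and spots with an outlying background received the median of all backgrounds in the same channel and array. Spots were averaged by probe and the brightest probe stood for a gene. Genes well above background in at least 2 IUGR or 2 control channels were tested with a dye term (2 residual degrees of freedom), adjusted by Benjamini-Hochberg over all 20012. The dye term takes up the gap between the 2 dye orientations. The p-values, SEs and intervals therefore reflect the moderated spread between arrays of the same orientation, not the whole spread between the 4 arrays. For Vwf the SD of the 4 array ratios was 0.65, beside an SE of 0.09. The number of arrays limits the precision. With an array left out, its partner stood alone for that dye orientation, and the spread came from the other orientation.

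The genes and lists were chosen with earlier results of these data known. Named beside the 10 genes and 4 ligands were the 3 genes of smallest p of each vascular list and the 2 of smallest p of the pericyte, lymphatic and platelet lists. The other lymphatic genes, the pericyte genes above 0, and Ins1, Ins2 and Iapp of the beta cell list were named as well. Gene names are those of the array design. Alternatives included other background corrections, normalizations, filters, covariates and leaving out each array.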

Additional observations from a re-analysis of the deposited data

Results flagged for a closer look

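Of 32 results with 4 array ratios each, 2 had an array far from the other 3 by Dixon's criterion at the 95% level, which chance alone meets in about 1 group in 20. Flt1 was at -0.2294 on array 1, with a gap to the nearest array that took up 0.8488 of its whole range. Vegfa was at -0.3728 on array 1, with a gap of 0.8463 of its range. Both lay below 0 on that array and between 0.27 and 0.40 on the other 3.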

How the results depend on the processing

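No endothelial gene was called in any of the 20 alternatives (lowest adjusted p 0.0723, limma). Median centring called 15 genes and a brightness covariate 8, where the reported fit called 0 (2735 at an unadjusted p under 0.05). Ccl21 was among them (-1.99, adjusted p = 0.0108; -1.40, adjusted p = 0.0336). Endothelial genes at an unadjusted p under 0.05 numbered 3 as reported, 0 with processed signals, 0 with median centring, 1 with the brightness covariate and 0 to 6 when an array was left out (6 without array 1, 0 without array 2, 0 without array 3). The count over all 20012 genes also moved. It was 2735 as reported, 1883 with processed signals, 1185 with median centring and 1464 with the brightness covariate. Without array 1, 2 or 3 it was 6204, 936 or 472. With the replicate number as a block in place of the dye term, chosen after the data were seen, there was 1 endothelial gene, beside 2877 of all genes. Same-numbered samples correlated at r from -0.299 to 0.107, and the highest r with another number ran from 0.093 to 0.378. Same-numbered samples always lay on different arrays, so these correlations cannot decide whether the numbers pair samples. The planned separate-channel fit with that block could not be fitted. The endothelial median was -0.08 with median centring, 0.05 with the brightness covariate and 0.07 to 0.34 with an array left out.

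Signs turned as follows. Pecam1 was -0.035 with processed signals, -0.34 with median centring, -0.0037 with outlying backgrounds left out or kept, -0.0051 with the brightness covariate and -0.022 to 0.046 with an array left out. Median centring gave Kdr -0.22, Plvap -0.26, Esam -0.22, Vegfa -0.21, Angpt2 -0.11, Pgf -0.23 and Treml1 0.45. The brightness covariate gave Plvap -0.022 and Vegfa -0.033. Backgrounds left out or kept gave Angpt2 -0.058 and Pgf -0.0034. Treml1 was 0.021 without background subtraction and 0.030 in the deposited ratios. With an array left out, Kdr ran from -0.021 to 0.32, Plvap from -0.037 to 0.31, Vegfa from -0.010 to 0.31, Angpt1 from -0.17 to 0.021, Angpt2 from -0.072 to 0.25 and Pgf from -0.0084 to 0.18. The cause was not tested.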
